A study of Mus musculus with 2 samples.

Results

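The genes described here run the chromosome cycle of dividing cells: 18 genes of S phase, in which DNA is copied, and 16 genes of mitosis, in which the copies are separated. They were chosen by name, as array probes annotated with 1 of 34 listed symbols or an older form of it (Cdc2a for Cdk1 and Cdc45l for Cdc45). All 34 had at least 1 probe well above background on both arrays, out of 14967 genes measured on at least 1 array and 12968 on both. The study compared 2 samples grown from R1, a line of mouse embryonic stem (ES) cells, on one-colour Agilent arrays, with 1 array per group. The day 6 sample held embryoid body cells after 6 days of neural differentiation, labelled neural precursors, and the day 0 sample held undifferentiated ES cells. Day 0 cells were kept on mitotically inactive fibroblast feeders in medium with 15% serum and leukaemia inhibitory factor at 1000 U/ml. Neither the day 6 medium nor any removal of feeders before RNA extraction is described in the sources used here. R1 is 1 line, the labels name no genetic change in either sample, and they name no replicate cultures. With 1 array per group no test between conditions was possible, so every difference is a description of these 2 RNA samples.

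A cell prepares to copy its DNA by loading the MCM helicase onto replication origins, a step called licensing that needs Cdc6 and Cdt1 and is blocked by geminin. In S phase Cdc45 and other factors turn the loaded helicase on, polymerases copy both strands behind it, and Pcna rings hold the polymerases to the DNA. In mitosis Cdk1 with its cyclins, Plk1 and the Aurora kinases build the spindle, while a checkpoint holds back Cdc20 until every chromosome is attached. Mouse ES cells are known for fast cycles with a short first gap phase and for E2F-driven genes that stay on through most of the cycle, and neural progenitors are known to lengthen their cycle as they mature.

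The samples were first set against markers of the cell types they could hold. All 9 measured ES cell markers were at least 2-fold lower on day 6, among them the pluripotency factor gene Pou5f1, which read 302 units on day 6 and 41679 on day 0. Neural progenitor markers numbered 8, of which 5 were 2-fold higher or more on day 6 by their brightest probe (another probe of 1 of them, Slc1a3, gave -1.31). Neuron markers, which belong to cells that have left the cycle, numbered 10, of which 8 were 2-fold higher or more. The other 2 were Ina at -0.47 and Stmn2 at 0.16, with another Stmn2 probe at -0.73. The summed scaled intensity of the 8 neural progenitor markers was 495360 on day 6 and 217910 on day 0. That of the 10 neuron markers was 235878 on day 6 and 44419 on day 0, where Dcx, Isl1 and Nhlh1 were not well above background. Of 10 fibroblast markers, which the arrested feeders would carry, 6 were at least 2-fold lower on day 6. The other 4 lay above 0 in log2 difference, Pdgfrb at 0.40, Postn at 0.29, Col3a1 at 0.22 and Fbn1 at 0.14. The summed scaled intensity of all 10 was 30611 on day 6 and 141326 on day 0. Lox was the 1 fibroblast marker not well above background on day 6. Of 3 endoderm markers 1 passed 2-fold upward, and of 4 mesoderm markers 1 passed it upward and 2 downward. Those 2, Hand1 and Mesp1, were measured above background on day 0 only, and as bounds Hand1 was at least 13.4-fold lower and Mesp1 at least 1.66-fold lower. The part of neurons or feeders in the results below was not tested. In bulk RNA, fewer dividing cells and less RNA per dividing cell cannot be told apart.

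Most members of both sets were lower on day 6, and none was higher by 1.5-fold. Differences are given as day 6 minus day 0 on the log2 scale, after each array was scaled to its 75th percentile of intensity, and each single difference carries a software error SD of 0.20. Fold values come from these scaled differences, while the intensities printed beside them are unscaled, so the ratio of a printed pair differs from its fold by the 0.22 log2 units between the arrays' scaling values. The median difference was -0.59 for the 18 S-phase genes and -0.41 for the 16 mitotic genes, against -0.12 for genes measured on both arrays. The quartiles were -0.93 and -0.26 for S-phase genes, -0.63 and -0.23 for mitotic genes, and -0.73 and 0.58 for genes measured on both arrays. The sets overlapped almost throughout, with S-phase genes ranging from -1.22 to 0.22 and mitotic genes from -1.09 to 0.48. The S-phase median lay 0.18 log2 units below the mitotic median. It was 0.01 with the opposite sign when the dimmest probe of each gene was used, and without replicate arrays the error of this gap is not known.

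**Figure D1:**
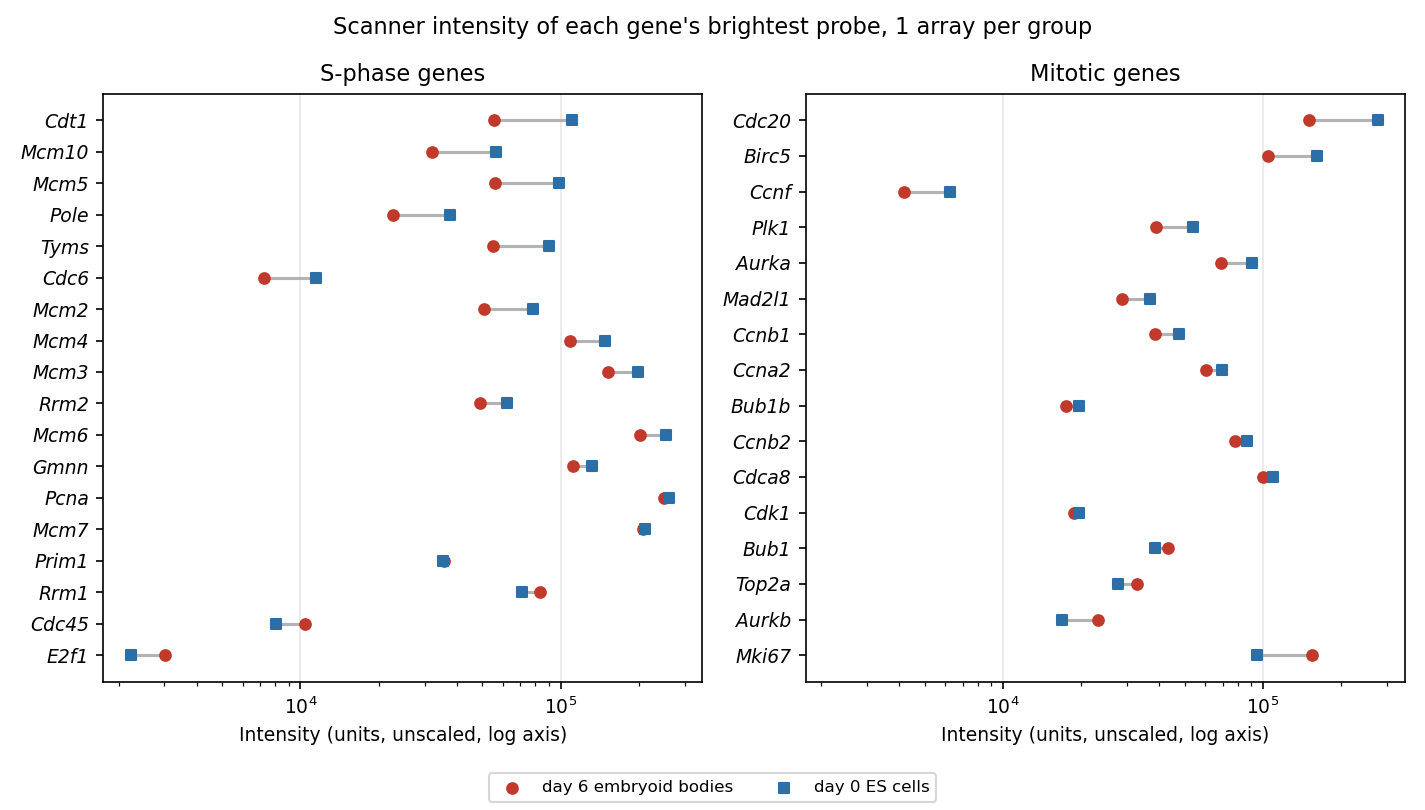
Intensity (log axis, unscaled units) of the brightest probe of each of 18 S-phase genes (left) and 16 mitotic genes (right), with day 6 embryoid bodies as circles and day 0 ES cells as squares, 1 array each. Cdt1 read 55451 on day 6 and 110827 on day 0, while Mki67 read 154860 on day 6 and 94918 on day 0.

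Counts of members past a fold threshold were read beside the same counts over all genes. None of the 34 members was at least 2-fold higher on day 6, where 16.4% of genes measured on both arrays were, and none was at least 1.5-fold higher, where 24.8% were. At least 2-fold lower were 3 S-phase genes (16.7%), Cdt1, Mcm10 and Mcm5, and 1 mitotic gene (6.25%), Cdc20, against 18.0% of genes measured on both arrays. At least 1.5-fold lower were 9 of 18 S-phase genes and 5 of 16 mitotic genes (31.2%), against 30.1% of genes measured on both arrays. The mitotic share therefore lay near the background, and the 2-fold shares lay at or below it. Over genes measured on at least 1 array the backgrounds were 20.2% and 20.9% at 2-fold, higher and lower, and 28.1% and 31.4% at 1.5-fold. A difference below 0 was found for 15 of 18 S-phase and 13 of 16 mitotic genes, against 55.3% of genes measured on both arrays (53.7% of those on at least 1). The other 6 members lay above 0, against 44.7% (46.3%). The 2-fold counts hung on the scaling: with no scaling, quantile normalization or the deposited values, 0 members were 2-fold lower. Over all genes 2564, 2953 and 2936 were 2-fold lower in those settings, against 3121 in the main setting. Quantile normalization and the deposited values gave nearly the same member values (Cdt1 at -0.88 and -0.87), so they are not separate checks.

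**Figure D2:**
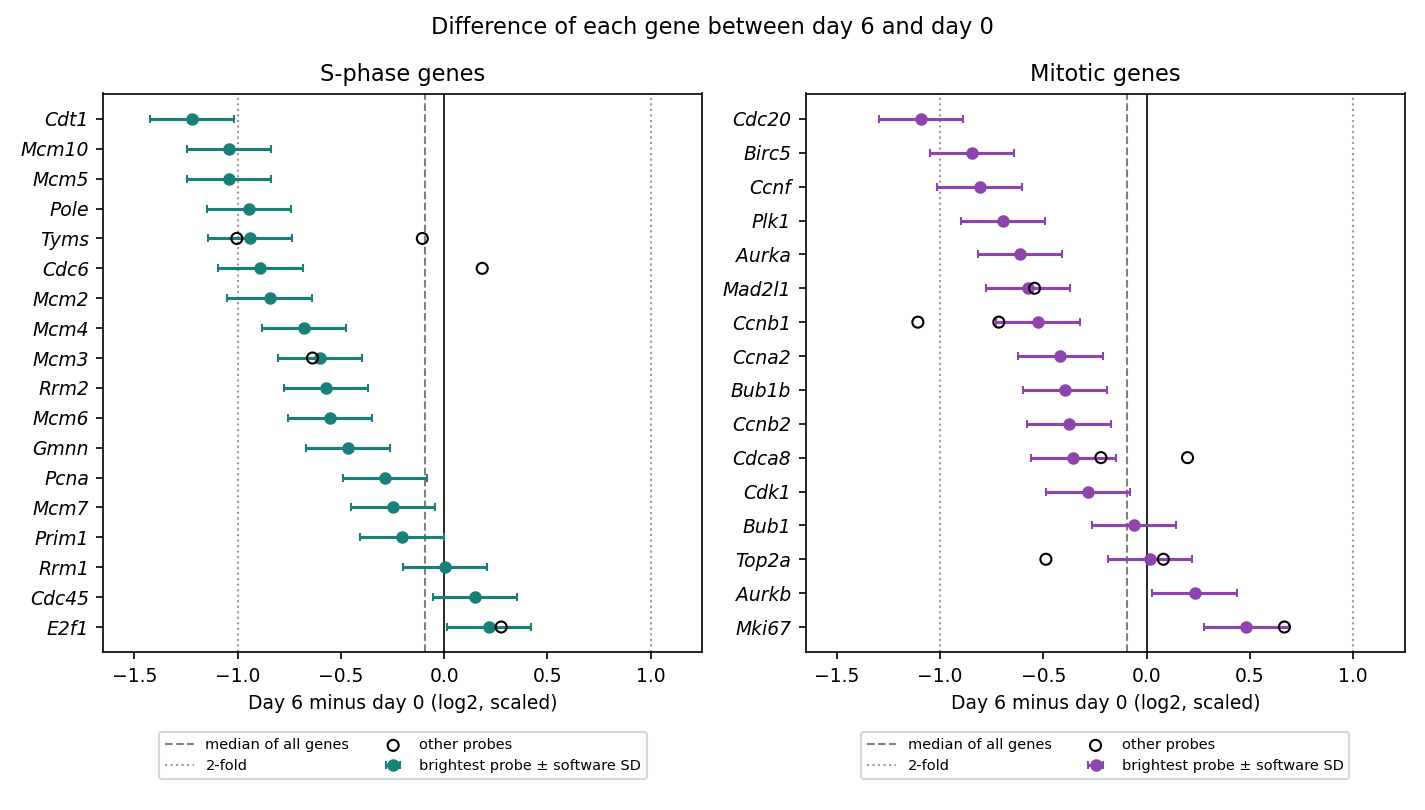
Day 6 minus day 0 difference (log2, scaled) of each member, with the software's error SD as bars, and other probes of the same gene that were well above background on both arrays as open circles. The S-phase genes run from -1.22 (Cdt1) to 0.22 (E2f1) and the mitotic genes from -1.09 (Cdc20) to 0.48 (Mki67), and the second Cdc6 probe lies at 0.18 while the first lies at -0.89.

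The MCM2-7 helicase is a ring of 6 related subunits that opens the DNA ahead of the polymerases, and all 6 genes were lower on day 6, with a median difference of -0.64. Only Mcm7 changed sign under an alternative scaling, to as high as 0.01 with quantile normalization or the deposited values. Mcm5 read 55745 units on day 6 against 98343 on day 0, which is 2.06-fold lower, with a difference of -1.04 ± 0.20 (software SD). Mcm2 had 50915 on day 6 and 78434 on day 0, a difference of -0.85. Mcm7 was the member of the ring nearest to no difference, at 207581 on day 6 and 211489 on day 0, with -0.25 ± 0.20. The day 6 to day 0 ratio of Mcm5 was thus 1.73-fold below that of Mcm7, a gap of -0.79 ± 0.29. Scaling by a constant cannot move such a gap, and the few alternatives that moved it gave -0.81 to -0.70. The remaining subunits lay between them, Mcm4 at -0.68, Mcm3 at -0.60 and Mcm6 at -0.55. A second Mcm3 probe gave -0.64. The genes for subunits that work in equal numbers in the ring therefore spanned 0.79 log2 units.

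Promoters of these genes are shown because the 2 sets differ in the letters there, a property that the choice of members did not use. Windows of 300 bases, 250 before to 50 after the start, were taken from RefSeq (assembly GRCm38.p6) and were at hand for 29 of the 34 members, as 16 S-phase windows (Mcm7 has 2) and 14 mitotic windows. E2F factors, the main switches of S-phase genes, are known to bind TTTCGCGC or TTTGGCGC, and 1 of these stood on either strand in 5 of 16 S-phase windows (31.2%), 1 of 14 mitotic windows (7.14%) and 0.813% of all 32851 windows. The 5 belong to Cdt1, Mcm3, Mcm5, Mcm6 and Mcm7, and the mitotic one to Cdk1. The looser letters GGCGCG or GGCGGG, which can overlap an E2F match and are also common in GC-rich promoters, were in 81.2% of S-phase, 85.7% of mitotic and 39.9% of all windows. The Mcm5 window (chr8:75109259-75109558, plus strand) and the Mcm6 window (chr1:128359656-128359955, minus strand) are given 5′ to 3′ along the gene's strand. Capitals mark matches to the E2F letters, to CCAAT and to TTTGAA on either strand, and overlapping E2F matches on opposite strands appear as 1 run.
Mcm5: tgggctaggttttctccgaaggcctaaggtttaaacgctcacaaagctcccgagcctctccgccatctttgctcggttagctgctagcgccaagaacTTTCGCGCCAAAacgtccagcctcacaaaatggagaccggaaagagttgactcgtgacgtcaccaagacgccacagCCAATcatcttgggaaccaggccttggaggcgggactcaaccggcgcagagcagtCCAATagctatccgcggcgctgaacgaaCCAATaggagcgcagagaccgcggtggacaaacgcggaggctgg
Mcm6: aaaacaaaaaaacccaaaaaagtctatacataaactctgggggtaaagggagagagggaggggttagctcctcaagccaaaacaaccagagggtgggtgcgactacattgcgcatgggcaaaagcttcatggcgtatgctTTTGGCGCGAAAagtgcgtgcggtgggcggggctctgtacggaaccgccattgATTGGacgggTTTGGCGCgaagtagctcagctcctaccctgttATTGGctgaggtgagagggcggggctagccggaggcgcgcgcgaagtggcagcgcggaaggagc
Counted to their first base along the gene's strand, the E2F letters of Mcm5 lie 153 and 149 bases before the start, in an overlapping pair. Those of Mcm6 lie 110 bases before it, overlapped by a match on the opposite strand, and again 47 bases before it. Mcm5, with 2 overlapping matches, had the lowest difference of the ring (-1.04), while Mcm6, with 3 matches of which a pair overlaps, had -0.55. Mcm2, with 0 matches, had -0.85, and Mcm3, with 1, had -0.60. Mcm7, with 1 match in 1 of its 2 windows, had -0.25, and no window of Mcm4 was at hand. A match is a description of letters and says nothing here on binding.

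The licensing genes were all lower on day 6 by their brightest probes. Cdt1, which brings the helicase to origins, read 55451 on day 6 and 110827 on day 0. Its difference of -1.22 ± 0.20, or 2.33-fold lower, was the lowest of all 34 members and was at least 2-fold in 10 of 13 alternatives. That tally includes settings of filter, probe choice, bounds and saturated spots, which could barely move it. Cdt1 had 1 probe, well above background on both arrays and not saturated. Gmnn, the gene of geminin, which binds and blocks Cdt1, had 111332 on day 6 and 131649 on day 0, a difference of -0.46. The ratio of the loader gene was therefore 1.69-fold below that of its inhibitor, a gap of -0.76 ± 0.29. Cdc6, the other loader, had 7219 on day 6 and 11465 on day 0 by its brighter probe, a difference of -0.89. Its second probe went the other way, with 2564 on day 6 and 1934 on day 0, a difference of 0.18.

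The Cdc6 probes are printed because the direction of the gene depends on them. Both are annotated with the transcript NM_011799, and in the mouse build mm7 they lie on the plus strand at chr11:99030298-99030357 and chr11:99032894-99032953. The longest run of letters that they share is 6 bases.
Cdc6, first probe: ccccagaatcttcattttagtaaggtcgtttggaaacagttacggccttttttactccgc
Cdc6, second probe: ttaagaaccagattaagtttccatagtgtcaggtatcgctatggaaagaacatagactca
No annotation of that build was at hand, so exon and intron positions are not given. The 2 probes were 1.07 log2 units apart, the widest spread among the 9 members that had more than 1 probe measured on both arrays.

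At the replication fork the genes differed among themselves. Mcm10, which helps to activate the helicase, had 32046 on day 6 and 56608 on day 0, 2.06-fold lower. Cdc45, a part of the active helicase itself, had 10417 on day 6 and 8042 on day 0, a difference of 0.15 ± 0.20. The gap between Mcm10 and Cdc45 was -1.19 ± 0.29, and nearest to 0 at -0.96 among the alternatives. Pole, the catalytic subunit of the leading-strand polymerase, had 22788 on day 6 and 37636 on day 0, a difference of -0.95. Prim1, the primase subunit that makes the RNA primers, had 35706 on day 6 and 35294 on day 0, a difference of -0.21 that lay as high as 0.07 with no scaling, quantile normalization or the deposited values.

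The Pcna probe was spotted 10 times on each array, which shows the spread between spots. It had a mean of 250623 on day 6 over 9 kept spots and 261952 on day 0 over 10, with spot SDs of 0.0302 and 0.0429 log2 units on day 6 and day 0. Its difference of -0.29 is larger than the spread between spots. Over 234 probes spotted 8 times or more, the median spot SD was 0.0546 on day 6 and 0.0667 on day 0, above those of Pcna. Spots of 1 array share its RNA and labelling, so that spread holds no variation between cultures. The Pcna difference is also close in size to the shift of 0.22 log2 units between the scaling values of the arrays, and among the alternatives it reached -0.04.

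Nucleotide supply and E2f1 filled out the S-phase set. Tyms, the enzyme that makes thymidylate for DNA, had 54805 on day 6 and 90132 on day 0, a difference of -0.94 or 1.92-fold lower. Ribonucleotide reductase turns ribonucleotides into DNA precursors with a large subunit, Rrm1, and a small one, Rrm2. Rrm1 had 83302 on day 6 and 71279 on day 0, a difference of 0.00 that was -0.11 with median scaling. Rrm2 had 48882 on day 6 and 62262 on day 0, a difference of -0.57, so the subunits differed by 0.57 ± 0.29 log2 units. E2f1, a transcription factor that turns on S-phase genes, had 3017 on day 6 and 2226 on day 0. Its difference was 0.22 by that probe and 0.28 by a second probe spotted 10 times, and it stayed above 0 in all 13 alternatives, at 0.10 to 0.44.

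Tyms has probes that read very different signals. Those for the transcript NM_021288 read 54805 and 41447 on day 6, against 90132 and 71257 on day 0, differences of -0.94 and -1.0, while a probe for the record X14489 read 261 on day 6 and 241 on day 0, a difference of -0.11. In mm7, on the minus strand, the first NM_021288 probe lies at chr5:29093977-29094036. The second spans chr5:29093997-29094890 with only 60 letters, so it skips genomic bases, and the X14489 probe at chr5:29094245-29094304 lies inside the skipped stretch. Capitals mark the longest unbroken run of letters that the NM_021288 probes share, 23 bases. These probes overlap beyond that run, so they are not independent readings.
Tyms, first NM_021288 probe: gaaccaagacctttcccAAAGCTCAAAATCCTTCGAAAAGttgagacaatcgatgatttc
Tyms, second NM_021288 probe: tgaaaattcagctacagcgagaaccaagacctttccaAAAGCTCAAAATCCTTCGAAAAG
Tyms, X14489 probe: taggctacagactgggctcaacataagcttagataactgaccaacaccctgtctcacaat
The same layout occurred for Cdca8, where a dim probe (524 on day 6 and 391 on day 0) lay inside the stretch skipped by another probe of the gene. Second probes of Mcm4, Pole and Rrm1, each for a clone record, stayed at background on day 6 and on day 0, and that of Cdk1 was well above it on day 0 only.

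Among the mitotic genes, Cdk1 and all 4 cyclins were lower on day 6, with a median difference of -0.42. Cdk1, the kinase that drives cells into mitosis, had 18841 on day 6 and 19670 on day 0, a difference of -0.28 ± 0.20. Its partners were also lower, with Ccna2 (cyclin A2) at 60608 on day 6 and 69364 on day 0 and Ccnb2 (cyclin B2) at 78419 on day 6 and 87202 on day 0, differences of -0.42 and -0.38. Ccnb1 (cyclin B1) had 38542 on day 6 and 47546 on day 0 by its brightest probe, a difference of -0.53. Its other probes gave -0.72 and -1.11, so its size, though not its direction, depends on the probe. The -1.11 probe read 31200 on day 6 and 57614 on day 0, a mean log2 intensity close to that of the brightest. With normexp or with no background subtraction the gene's value was -1.11, near that of this probe. Ccnf (cyclin F), which as part of a ubiquitin ligase marks proteins for destruction, had 4188 on day 6 and 6285 on day 0 and was 1.75-fold lower.

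The spindle kinases Plk1 and Aurka were lower on day 6 in every alternative. Plk1, which matures centrosomes and helps to start mitosis, had 38709 on day 6 and 53659 on day 0, a difference of -0.69. Aurka (Aurora A), which acts at spindle poles, had 69179 on day 6 and 90624 on day 0, a difference of -0.61. The chromosomal passenger complex, which corrects faulty spindle attachments, had members on both sides of 0. Its kinase Aurkb (Aurora B) had 23195 on day 6 and 16918 on day 0, a difference of 0.23 ± 0.20. Its subunit Birc5 (survivin) had 104522 on day 6 and 160869 on day 0, 1.80-fold lower. Cdca8 (borealin) lay between at -0.35 by its brightest probe, and above 0 with quantile normalization, the deposited values or the dimmest probe. The gap between Birc5 and Aurkb was -1.08 ± 0.29, and nearest to 0 at -0.90 among the alternatives.

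Cdc20 was the lowest of the mitotic genes. It activates the anaphase-promoting complex, the ubiquitin ligase that triggers chromosome separation, and it had 150942 on day 6 and 275701 on day 0. Its difference of -1.09 ± 0.20 was at least 2-fold lower in 10 of 13 alternatives and ran from -1.21 to -0.82. As for Cdt1, it had 1 unsaturated probe, so settings of filter, probe choice, bounds and saturated spots could barely move it. The checkpoint genes whose products hold Cdc20 back were nearer to 0. Mad2l1 had 28801 on day 6 and 36708 on day 0, a difference of -0.57, and Bub1b (BubR1) had 17419 on day 6 and 19617 on day 0, a difference of -0.39. Bub1, a kinetochore kinase, had 43048 on day 6 and 38468 on day 0, a difference of -0.06 that was above 0 in 4 of 13 alternatives and reached 0.23. The gap between Cdc20 and Bub1 was -1.03 ± 0.29.

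Mki67 was the member that stood highest on day 6. It encodes Ki-67, a protein of dividing cells that coats mitotic chromosomes and is used widely as a proliferation marker. Its probes read 154860 and 43242 on day 6, against 94918 and 23333 on day 0, which gave differences of 0.48 and 0.67. It was above 0 in all 13 alternatives, at 0.37 to 0.83, and at least 1.5-fold higher in 4 of them. The gap between Cdc20 and Mki67 was -1.58 ± 0.29, the widest inside the mitotic set. Top2a, the topoisomerase that untangles sister chromosomes, had 32777 on day 6 and 27749 on day 0, a difference of 0.02. Its other probes gave 0.08 and -0.49, and its own value was below 0 with median scaling, the mean of probes or the dimmest probe.

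Promoters of mitotic genes held other letters more often in these windows. The letters TTTGAA, known as the cell cycle genes homology region (CHR) and bound by the DREAM and MuvB complexes, stood on either strand in 10 of 14 mitotic windows (71.4%), 2 of 16 S-phase windows (12.5%) and 17.9% of all windows. CCAAT, the site of factor NF-Y, stood in 12 of 14 mitotic windows, 12 of 16 S-phase windows and 37.4% of all windows. The windows of Cdc20 (chr4:118437294-118437593, minus strand), Ccnb2 (chr9:70421505-70421804, minus strand), Cdk1 (chr10:69352863-69353162, minus strand) and Mki67 (chr7:135716330-135716629, minus strand) are printed. They set the lowest and the highest mitotic gene, Cdc20 and Mki67, beside Ccnb2 and Cdk1, which lay between them. Capitals mark the same letters as above.
Cdc20: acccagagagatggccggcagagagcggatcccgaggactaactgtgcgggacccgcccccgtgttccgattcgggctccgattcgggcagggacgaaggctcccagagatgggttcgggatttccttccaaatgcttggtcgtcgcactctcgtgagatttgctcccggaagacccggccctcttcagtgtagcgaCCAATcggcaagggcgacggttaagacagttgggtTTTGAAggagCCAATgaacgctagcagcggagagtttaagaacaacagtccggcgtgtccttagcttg
Ccnb2: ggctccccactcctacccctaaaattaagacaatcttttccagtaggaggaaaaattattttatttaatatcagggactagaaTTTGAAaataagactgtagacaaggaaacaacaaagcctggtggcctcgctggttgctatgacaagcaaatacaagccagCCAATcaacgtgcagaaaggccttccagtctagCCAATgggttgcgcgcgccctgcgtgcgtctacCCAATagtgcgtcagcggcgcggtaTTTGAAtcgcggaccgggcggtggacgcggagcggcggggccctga
Cdk1: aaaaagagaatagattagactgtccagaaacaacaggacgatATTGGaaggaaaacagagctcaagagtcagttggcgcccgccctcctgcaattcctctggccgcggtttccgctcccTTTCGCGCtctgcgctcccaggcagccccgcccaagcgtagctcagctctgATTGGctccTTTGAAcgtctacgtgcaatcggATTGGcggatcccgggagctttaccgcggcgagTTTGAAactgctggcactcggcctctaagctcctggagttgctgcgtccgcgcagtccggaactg
Mki67: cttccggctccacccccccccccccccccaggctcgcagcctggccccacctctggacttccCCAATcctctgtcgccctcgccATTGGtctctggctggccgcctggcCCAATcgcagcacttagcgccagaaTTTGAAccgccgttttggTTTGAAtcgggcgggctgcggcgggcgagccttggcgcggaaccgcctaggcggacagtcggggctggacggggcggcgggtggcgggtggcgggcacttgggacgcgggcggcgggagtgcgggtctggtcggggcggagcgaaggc
TTTGAA begins 18 bases before the start in Cdc20, 71 and 15 bases before it in Cdk1, and 167 bases before and 4 bases after it in Ccnb2. In Mki67 it begins at 116 and 98 bases before the start. The genes at both ends of the mitotic range thus held TTTGAA and CCAAT, with Cdc20 at -1.09 and Mki67 at 0.48. Other mitotic windows differed. Those of Birc5 (-0.84) and Mad2l1 (-0.57) held neither, and those of Ccnb1 (-0.53) and Bub1 (-0.06) held CCAAT without TTTGAA.

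**Figure D3:**
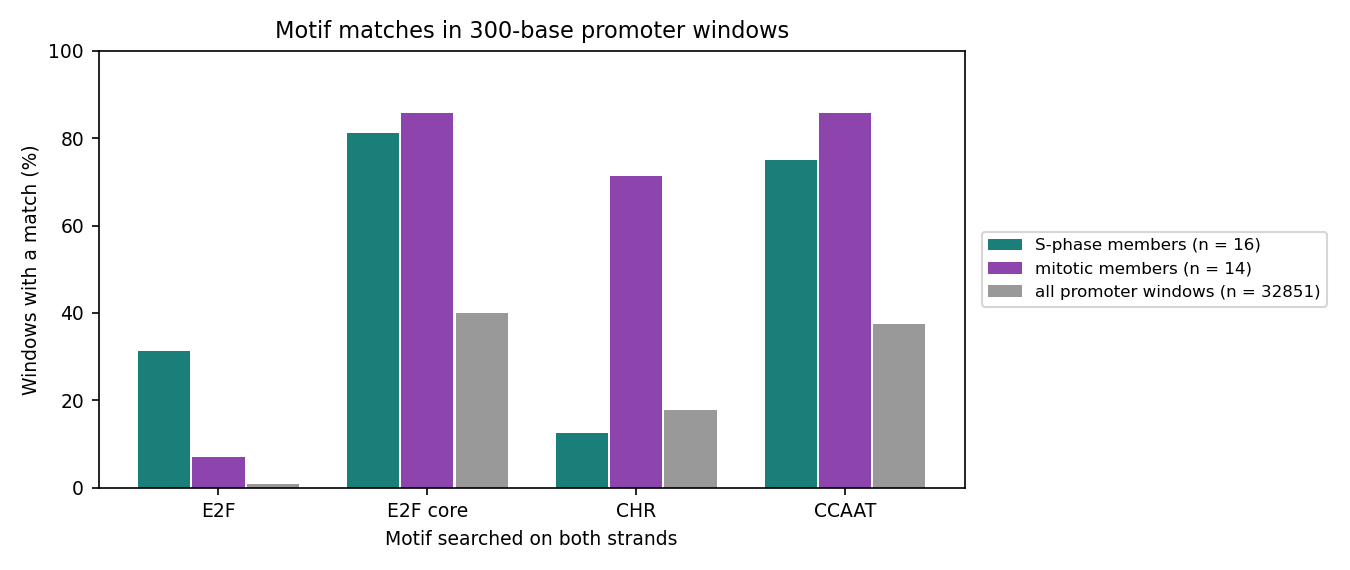
Share of 300-base promoter windows (percent) with at least 1 match on either strand to the E2F letters, their looser core, the CHR letters TTTGAA and CCAAT, in 16 S-phase windows, 14 mitotic windows and all 32851 windows. The E2F share is highest in S-phase windows (31.2%) and the CHR share in mitotic windows (71.4%).

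Other genes of the same processes were read from 6 lists, whose counts stand beside those over genes measured on both arrays, where 18.0% were lower and 16.4% higher by 2-fold or more. Of 46 genes of licensing, origin firing and the fork, the median difference was -0.33, and 6 were lower by 2-fold or more while 1 was higher by as much, both below those shares. The lowest were Orc1, the large subunit of the origin recognition complex, with 6160 on day 6 and 17371 on day 0 (-1.72), Rfc5 of the clamp loader (-1.51) and Ticrr (treslin), which helps origins fire (-1.48). The highest were Pold4 (1.06) and Pold2 (0.60), small subunits of the lagging-strand polymerase, and the helicase gene Mcm9 (0.79, and 0.16 by another probe). Of 13 genes of nucleotide and histone supply, 3 passed 2-fold downward and 1 upward, around a median of -0.57, and the downward count is near the share over all genes. Dut, which keeps uracil out of DNA, and Dtymk, which acts after Tyms in making thymidine triphosphate, lay at -1.39 and -1.26, and Hells, a chromatin remodeller, at -1.41. Rrm2b, the small reductase subunit known for DNA repair, stood at 1.30, at the low intensities of 515 on day 6 and 179 on day 0. Dck and Ctps, enzymes of salvage and of cytidine nucleotide synthesis, lay at 0.32 and -0.37, and the Dck probes ranged from -0.50 to 0.49.

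The mitotic lists held the gene furthest from 0 among all these. Mybl2 (B-Myb), a transcription factor that works with MuvB on mitotic genes, had 5743 on day 6 and 42489 on day 0, 8.63-fold lower. In its list of mitotic entry genes, the median was -0.65, and of 17 measured 4 passed 2-fold downward and 1 upward, near the 18.0% for lower and below the 16.4% for higher over all genes. Cdc25b and Cdc25c, phosphatases that switch Cdk1 on, had differences of 1.2 and 0.59, and the spindle factor gene Tpx2 at -0.10. Ensa and Arpp19, whose products inhibit the phosphatase that opposes Cdk1, lay at -1.23 and -1.06 by their brightest probes, but other probes of the same genes reached 0.56 and 1.07. Of 40 checkpoint, kinetochore and centromere genes, 3 passed 2-fold downward and 0 upward, around a median of -0.26, both below the shares over all genes. Spc24, Cenpt and Zwilch, all kinetochore genes, were 2.30-fold, 2.16-fold and 2.06-fold lower. Zwint (0.89, with another probe at -0.40), Cenpf (0.59, with another probe at 0.03) and Spag5 (0.56) stood highest. Of 50 genes of condensin, cohesin, anaphase and cytokinesis, 8 passed 2-fold downward and 0 upward, around a median of -0.16, both again below those shares.

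The extremes of that last list include genes that work with Cdc20. Ube2c and Ube2s, the enzymes that hand ubiquitin to the complex, had 26840 and 89717 on day 6, against 61368 and 181212 on day 0, which are differences of -1.42 and -1.24. By brightest probes, Cdc16, a subunit gene of the complex, lay at 0.58 and was the highest of its subunit genes in the list. The others ran from -0.67 (Anapc10) to 0.18 (Anapc2) by their brightest probes. Another probe of Anapc10 gave 0.63, and another of the subunit gene Cdc26 gave 1.20, above Cdc16. Pttg1 (securin), a protein that the complex destroys, had 108772 on day 6 and 49189 on day 0, a difference of 0.92. Wapal, which releases cohesin, lay at -1.28 with another probe at -0.58, and the condensin gene Smc4 at 0.52.

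The E2F and pocket protein list had a median of -0.03 over 15 genes, with 2 of them past 2-fold downward and 3 upward, near the 18.0% and 16.4% over all genes. Factors known as repressors lay on both sides of 0, with E2f8 at -2.33, E2f4 at -1.42 and E2f7 at -0.95, and with E2f5 at 1.12. E2f6, named after its value was seen, lay at 0.86 by its brightest probe and at 0.00 by its other probe. Rb1, the retinoblastoma gene that holds E2F in check, had 13862 on day 6 and 4307 on day 0, a difference of 1.46, while its other probe gave 0.41. Its relative Rbl1 (p107) lay at 1.33.

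**Figure D4:**
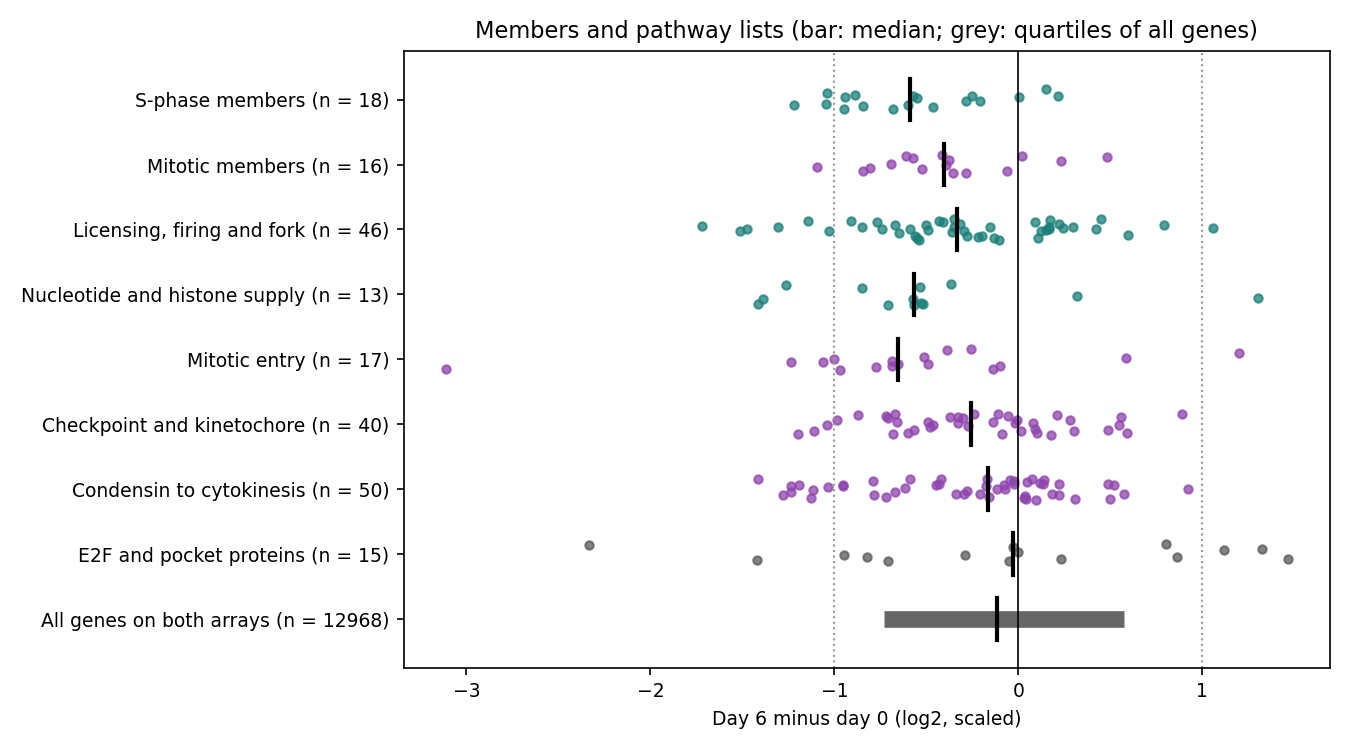
Day 6 minus day 0 difference (log2, scaled) of each gene of the 2 member sets and 6 pathway lists, with the median as a bar and the quartiles of 12968 genes measured on both arrays in grey. The S-phase and mitotic medians are -0.59 and -0.41, and Mybl2 at -3.11 is the point furthest from 0.

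The medians of both sets stayed below 0 and below the median of all genes in every one of the 13 alternatives. The S-phase median ran from -0.70 to -0.29 and the mitotic median from -0.52 to -0.15. The median of all genes was -0.09 in the main setting, -0.21 with median scaling and 0.13 with no scaling. Relative to that median the S-phase set lay at -0.49 and the mitotic set at -0.31, values that scaling by a constant cannot move. They were -0.29 and -0.15 with quantile normalization and -0.30 and -0.12 with no filter on dim genes. Of the 34 members, 23 lay below 0 and 4 above 0 in every alternative (E2f1, Cdc45, Aurkb and Mki67), and 7 took both signs. Such tallies overstate the number of separate checks. All members were well above background on both arrays and none was saturated, so settings of filter, bounds and saturated spots could barely move a member. A member with a single probe also could not move under a change of probe. Quantile normalization and the deposited values gave nearly the same member values.

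**Figure D5:**
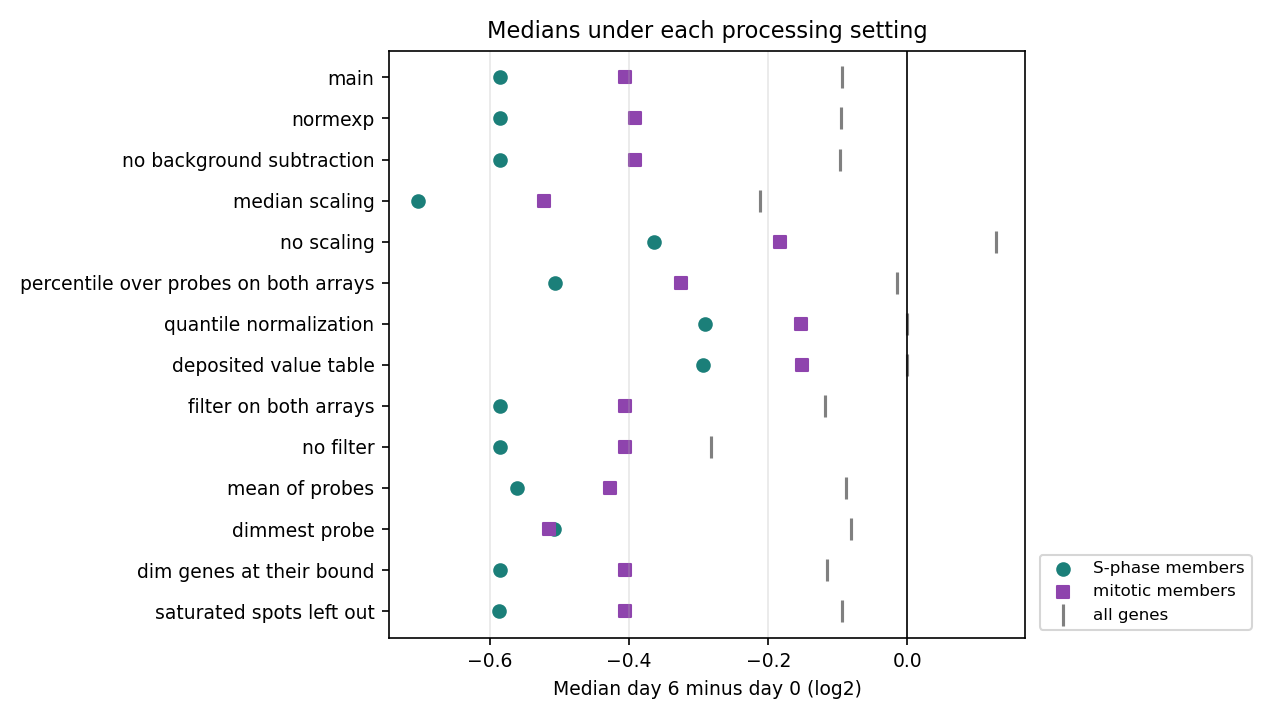
Median day 6 minus day 0 difference (log2) of 18 S-phase genes, 16 mitotic genes and all genes under the main setting and 13 alternatives. The S-phase median lies left of the mitotic median in all but the dimmest-probe setting, where they are -0.51 and -0.52. Scaling by a constant cannot move the gap between them, which also stayed at -0.18 in the filter, bound and saturated-spot settings.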

How the data were processed

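Total RNA of 2 samples was measured in 1 channel (Cy3), with 1 array per group. Per the file headers, the scanner files were made with Feature Extraction 9.5.3.1 on array design 014868, with spatial and multiplicative detrending, and give each spot's processed intensity, its error, and flags for spots well above background, saturated or outlying. Both arrays lay on 1 slide, where each group had its own position, which cannot be told apart from the group. The authors also deposited a log2 value table whose sorted columns differ by at most 0.000469, so both columns hold nearly the same set of values, as after quantile normalization. Its steps are not described there. The deposited values and the quantile setting used here are therefore not separate checks. Differences in the deposited table correlate with those of the scanner files at 0.989 across probes, which sets its direction as day 6 minus day 0.

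Control and outlier spots were left out, log2 intensities of a probe's spots were averaged, and each array's 75th percentile was subtracted (4371 units on day 6, 3746 on day 0). Of 41174 gene probes, 26896 on day 6 and 25246 on day 0 were well above background. No member was saturated. Members were matched by the gene name in the scanner file, which gave 51 probes (21 members with 1 probe), and other genes through RefSeq accessions and symbols of GRCm38.p6. A gene took its brightest probe among those well above background on at least 1 array. The software error rests on a multiplicative error set at 0.1, leaves out variation between cultures, and precision is limited by having only 2 arrays. Members, lists and roles were chosen with earlier results of these data known. The text names all members and the 3 highest and 3 lowest genes of each pathway list, and pairs of members compared with each other were picked after their values were seen. The calculation was tested on simulated data. Python 3.11.15, pandas 2.3.3 and, for normexp background correction (offset 50), limma 3.58.1 in R 4.3.3 were used. Alternatives changed the background correction, scaling, filter, choice of probe, bounds for dim genes and saturated spots, and used the deposited values.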

Additional observations from a re-analysis of the deposited data

How the results depend on the processing

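No paired analysis was possible because each group held 1 array, and no replicate could be left out for the same reason. Of 442 member values under 13 alternatives, 99 moved by over 1 software SD and 0 members that were 2-fold apart changed sign. The 442 values include settings of filter, bounds and saturated spots, which could barely move any member. Of the summary values, 172 stayed within their limits and 23 moved. The cause was not tested, except that 3 settings shift all values alike by construction. These are no scaling, median scaling and the percentile taken over probes on both arrays. With no scaling, quantile normalization and the deposited values, the S-phase median was -0.36, -0.29 and -0.29 and the mitotic median -0.18, -0.15 and -0.15. In the same 3 settings 0 S-phase and 0 mitotic genes were 2-fold lower, 1 mitotic gene (Mki67) was 1.5-fold higher, and 3, 2 and 2 mitotic genes were 1.5-fold lower. Over all genes, 2564, 2953 and 2936 were 2-fold lower in those settings. The all-gene counts at 1.5-fold were 5069, 4406 and 4409 higher, and 3734, 4310 and 4296 lower. S-phase genes at least 2-fold lower numbered 6 with median scaling and 1 with the percentile taken over probes on both arrays. Over all genes, 3465 and 2902 were 2-fold lower in those settings, against 3121 of 14967 in the main setting. Mitotic genes at least 2-fold lower numbered 2 with normexp and 2 with no background subtraction, where the all-gene counts were 2896 and 2823. They were Cdc20 and Ccnb1, the latter at -1.11 in both settings, the value that another of its probes gave in the main setting. With the dimmest probe, 1 mitotic gene was 1.5-fold higher, where 4420 of all genes were. Counts over all genes stayed within 1.5 times.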
